A study of Mus musculus with 6 samples.

Results

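Immediate early genes, represented by Fos, Fosb, Jun, Junb, Egr1, Atf3, Ier2, Dusp1, Zfp36 and Nr4a1, were followed in mouse duodenum with and without the vitamin D receptor. The members were given by name, and each was read from a probe set that the platform annotation pairs with a single gene symbol. All 10 had 1 such probe set, among 22180 genes with a probe set in the whole table. The mice were 10 weeks old and of the C57Bl/6 background, 3 VDR-null, which lack a working vitamin D receptor, and 3 wild-type. RNA of each duodenum was hybridised to a whole-transcript array (Affymetrix Mouse Gene 2.0 ST), and the deposited values are log2 signals. The labels name no treatment and give neither sex, diet, hour of sampling nor the kind of null allele.

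Immediate early genes are switched on within minutes of a stimulus, from transcription factors already present in the cell, and without new protein synthesis. Growth factor receptors and stress kinases act through the RAS and MAP kinase cascade on the serum response factor, its ternary complex partners and CREB, which sit on the promoters of these genes. Their transcripts are short-lived, and in the gut they respond to feeding, luminal stimuli, injury and the handling of tissue, so a single sample catches a momentary level. Fos and Jun proteins pair to form the AP-1 factor, Egr1 and Nr4a1 are DNA-binding regulators of their own families, and Dusp1 and Zfp36 act in feedback, by removing phosphate from MAP kinases and by promoting decay of AU-rich messengers.

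The members are compact genes. In the RefSeq annotation of GRCm38.p6, their median span was 3290 bp, against 17149 bp over 21896 protein-coding genes, and only Nr4a1, at 20894 bp, was longer than that median. Nr4a1 lies 3.35 Mb from Vdr on chromosome 15, and Ier2 and Junb lie 314 kb apart on chromosome 8. RefSeq promoter windows, which run from 250 bases before to 50 bases after the annotated start, were searched for 8 members. Ier2 had no window, and Egr1 was left out of the search, so the counts say nothing of them. The window of Nr4a1 lies at a start inside its gene span, not at the outer end. A CRE half-site, TGACG on either strand, stood in 6 of the 8, in Fos, Fosb, Junb, Atf3, Dusp1 and Nr4a1, while 20.8% of the 32851 windows in the table held one. The full CRE, TGACGTCA, which contains the half-site, stood only in Dusp1 of the 8 and in 1.79% of all windows. A CArG box, the binding motif of the serum response factor, stood in Zfp36 of the 8 and in 1.63% of all windows, and the EGR motif GCGNGGGCG stood in Fosb, Zfp36 and Nr4a1 and in 5.55%. The AP-1 motif TGANTCA and the DR3 vitamin D response element, searched on both strands, had no match in the 8 windows, and 7.81% and 0.256% of all windows hold them. TATAAA stood in Fos and Junb and in 13.6% of all windows. These are letter matches in short windows and say nothing of occupancy.

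Promoter windows of GRCm38.p6, from RefSeq, are printed for Fos and Zfp36, which ordered the 6 arrays alike, for Fosb, whose genotypes did not overlap, and for Dusp1, which lay lowest on the array where Fos lay highest. They are chr12:85473640-85473939 on the plus strand for Fos, and, on the minus strand, chr7:28379179-28379478 for Zfp36, chr7:19309996-19310295 for Fosb and chr17:26508423-26508722 for Dusp1. Each runs 5′ to 3′ along its gene, and capitals mark every match to the CRE, CRE half-site, CArG, EGR and TATAAA motifs. Counted from the annotated start, the half-sites of Fos begin at -129 and -66 and its TATAAA at -33. The CArG box of Zfp36 begins at -58, and the full CRE of Dusp1 at -143.
Fos: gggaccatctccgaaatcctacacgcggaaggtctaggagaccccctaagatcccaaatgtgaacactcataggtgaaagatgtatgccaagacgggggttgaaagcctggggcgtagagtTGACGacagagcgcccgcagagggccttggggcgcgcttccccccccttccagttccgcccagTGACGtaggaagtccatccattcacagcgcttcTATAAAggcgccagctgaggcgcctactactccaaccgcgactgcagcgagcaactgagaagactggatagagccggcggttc
Zfp36: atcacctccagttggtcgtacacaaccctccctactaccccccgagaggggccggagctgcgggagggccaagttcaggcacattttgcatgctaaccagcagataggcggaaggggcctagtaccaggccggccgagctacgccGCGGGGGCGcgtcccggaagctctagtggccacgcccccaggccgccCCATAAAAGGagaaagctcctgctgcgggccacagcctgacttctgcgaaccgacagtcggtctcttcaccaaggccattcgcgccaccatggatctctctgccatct
Fosb: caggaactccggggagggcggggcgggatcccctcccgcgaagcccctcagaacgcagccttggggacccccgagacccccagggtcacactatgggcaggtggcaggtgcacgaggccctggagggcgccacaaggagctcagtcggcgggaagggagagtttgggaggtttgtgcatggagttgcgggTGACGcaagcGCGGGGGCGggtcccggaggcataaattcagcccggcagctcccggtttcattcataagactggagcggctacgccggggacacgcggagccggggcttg
Dusp1: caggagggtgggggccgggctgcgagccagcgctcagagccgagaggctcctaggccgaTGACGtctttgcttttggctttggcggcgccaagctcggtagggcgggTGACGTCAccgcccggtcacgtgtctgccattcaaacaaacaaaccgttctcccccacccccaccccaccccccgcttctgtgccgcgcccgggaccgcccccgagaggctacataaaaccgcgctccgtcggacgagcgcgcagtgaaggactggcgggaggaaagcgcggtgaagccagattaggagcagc

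Array medians ran from 5.15 to 5.19, and 13174 genes were tested, a gene being tested when it exceeded 5.17, the median of the whole table, on at least 3 of the 6 arrays. All 10 members were among them; Fosb entered through 3 VDR-null arrays and only 1 wild-type array. Marker levels were not uniform over the arrays. The 16 enterocyte brush border markers, all tested, averaged 10.83 to 11.79 on VDR-null arrays and 9.60 to 11.12 on wild-type arrays, with the extremes on VDR-null replicate 1 and wild-type replicate 1. These arrays also formed the ends of the first principal component, which held 62.2% of the variance. Of 10 pancreatic acinar genes listed, the 4 tested averaged 9.95 on VDR-null replicate 3 and 5.95 to 7.53 on the other 5 arrays. All 4 averaged higher in VDR-null mice (median difference 1.85), against 44% of all tested genes. In 3 the genotypes did not overlap, as in 4.87% of all tested genes in that direction. At a limma adjusted p under 0.05, 0 of the 4 passed. The ileal genes Fabp6 and Slc10a2 lay below the median of all values on every array, and the Vdr probe set, which need not cover a deleted part, read 10.85 to 10.99 in VDR-null and 10.72 to 11.11 in wild-type mice.

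No immediate early gene passed the test between VDR-null and wild-type duodenum, and the members did not share a direction. Fos, Fosb, Junb, Atf3, Dusp1 and Zfp36 averaged higher in VDR-null mice, and Jun, Egr1, Ier2 and Nr4a1 averaged lower. A higher mean was thus seen in 6 of 10 members, and in 44% of all tested genes. limma, fitted over all tested genes with Benjamini-Hochberg adjustment, called 0 of the 10 members at an adjusted p under 0.05, and 0% of the 13174 genes. The members' adjusted p ran from 0.683 to 0.958. At an unadjusted p under 0.05 it called 1 member, Fosb, which was higher; 5.23% of all genes passed in either direction and 2.2% as higher. The median difference over the members was 0.13 on the log2 scale, beside -0.03 over all tested genes, and it was -0.13 without the replicate 1 arrays of both genotypes. With 3 arrays a genotype, the p-values weigh each difference against the spread between these mice, which limma moderates with that of all tested genes.

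**Figure D1:**
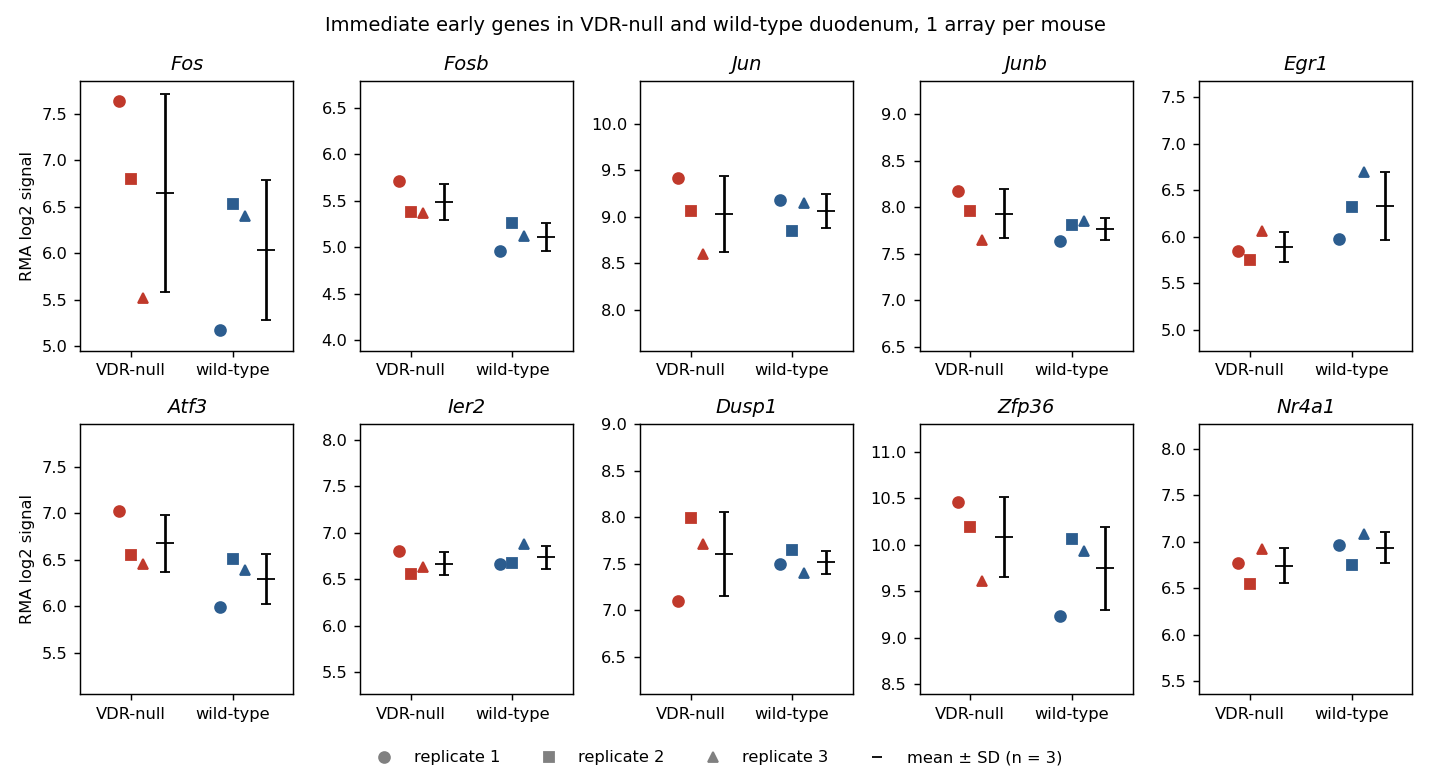
RMA log2 signal of the 10 immediate early genes in VDR-null (red) and wild-type (blue) duodenum, a panel per gene with the same height of scale but its own level; symbols give the replicate and black bars the mean ± SD (n = 3). Fosb is the only gene whose genotypes do not overlap, and Fos spreads most, by 2.46 from its lowest to its highest array.

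Fos varied most among the members. Fos, which encodes an AP-1 subunit found in complexes with Jun proteins (chr12:85473890-85477274), had signals of 7.64, 6.80 and 5.52 on VDR-null replicates 1 to 3, against 5.17, 6.53 and 6.40 on the wild-type replicates. VDR-null replicate 1 was high, each genotype had a low array (VDR-null replicate 3, wild-type replicate 1), and the genotypes overlapped. Fos averaged 6.65 ± 1.07 in VDR-null and 6.04 ± 0.75 in wild-type mice (SD, n = 3 each), 1.53-fold higher. The log2 difference was 0.62 ± 0.58 (SE), with a 95% confidence interval of -0.76 to 1.99 and a limma adjusted p of 0.729. Its standard deviation within genotype, 0.92, was larger than that of 99.2% of the tested genes. Leaving out VDR-null replicate 1 gave a difference of 0.13, leaving out wild-type replicate 1 gave 0.19, and leaving out both gave -0.31. It was 1.19 when VDR-null replicate 3 was left out. Each array left out singly was an extreme of its genotype for Fos, so the direction of each change was fixed in advance. VDR-null replicate 3 was also the array with the highest pancreatic acinar mean (9.95), whose part was not tested.

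Fosb, a relative of Fos that also pairs with Jun proteins (chr7:19302696-19310118), read 5.71, 5.37 and 5.37 in VDR-null mice, against 4.96, 5.26 and 5.12 in wild-type mice. Every VDR-null array lay above every wild-type array. This was the only member whose genotypes did not overlap, which held for 4.87% of all tested genes in the same direction and for 11.1% in either direction. Its difference was 0.37 ± 0.13 (SE; 95% confidence interval 0.06 to 0.69; limma unadjusted p = 0.0271, adjusted p = 0.683). It stayed positive in all 17 alternative fits that tested it, at 0.18 to 0.45, and failed the adjusted threshold in each. Fits that changed only the filter, prior, replicate block or probe set choice could not move it. Fosb passed the filter through 3 VDR-null arrays and only 1 wild-type array, so its direction and separation are not independent of the filter. The signal lies near 5.17, where background limits what the array can resolve.

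The Jun genes had smaller differences between the genotypes. Jun, the partner that lets AP-1 bind DNA as a dimer (chr4:95049036-95052222), had signals of 9.41, 9.06 and 8.60 in VDR-null mice, against 9.18, 8.85 and 9.15 in wild-type mice. The VDR-null mice held both the highest and the lowest value, and the difference was -0.03 ± 0.21 (SE; limma adjusted p = 0.958), with a 95% confidence interval of -0.53 to 0.47. Junb, a Jun relative with weaker activating capacity (chr8:84976909-84978748), read 8.18, 7.96 and 7.65 in VDR-null mice, against 7.64, 7.81 and 7.85 in wild-type mice. Its highest array was VDR-null replicate 1 and its lowest, by little, wild-type replicate 1; the genotypes overlapped, and the difference was 0.17 ± 0.15 (SE; limma adjusted p = 0.718).

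Atf3 and Zfp36 had the same highest and lowest arrays as Fos. Atf3, a stress-induced transcription factor of the ATF/CREB family (chr1:191170296-191183333), had signals of 7.02, 6.55 and 6.45 in VDR-null mice, against 5.99, 6.51 and 6.39 in wild-type mice. Only VDR-null replicate 1 stood clearly above the rest and only wild-type replicate 1 clearly below, the other 4 arrays lying between 6.39 and 6.55. The difference was 0.38 ± 0.19 (SE; limma adjusted p = 0.683; 95% confidence interval -0.08 to 0.84), 0.21 and 0.23 without the VDR-null or the wild-type replicate 1 array, and 0.06 without both. Zfp36, which encodes tristetraprolin (chr7:28376784-28379228), read 10.45, 10.19 and 9.61 in VDR-null mice, against 9.23, 10.06 and 9.93 in wild-type mice. The genotypes overlapped widely. The difference was 0.34 ± 0.28 (SE; limma adjusted p = 0.705), 0.16 and 0.09 without the VDR-null or the wild-type replicate 1 array, and -0.10 without both.

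Egr1 and Nr4a1 lay on the other side. Egr1, a zinc finger factor induced by growth factors (chr18:34861207-34864956), had signals of 5.85, 5.75 and 6.07 in VDR-null mice, against 5.97, 6.32 and 6.70 in wild-type mice. VDR-null replicates 1 and 2 lay below all wild-type arrays, while VDR-null replicate 3 lay above wild-type replicate 1. The mean was 5.89 ± 0.16 in VDR-null and 6.33 ± 0.37 in wild-type duodenum (SD, n = 3 each), 1.36-fold higher in wild-type. The log2 difference was -0.44 ± 0.19 (SE; limma adjusted p = 0.683), with a 95% confidence interval of -0.90 to 0.01. It was -0.26 without wild-type replicate 3, -0.68 with array weights, -0.60 without both replicate 1 arrays, and between -0.68 and -0.26 over all 18 alternative fits. Nr4a1, an orphan nuclear receptor (chr15:101253902-101274795), read 6.77, 6.55 and 6.92 in VDR-null mice, against 6.97, 6.76 and 7.08 in wild-type mice. The genotypes overlapped, with a difference of -0.19 ± 0.13 (SE; limma adjusted p = 0.684) that was negative in each of the 18 alternative fits. For both genes, the fits that changed only the filter, prior, replicate block or probe set choice could not move the difference.

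Dusp1 and Ier2 had small mean differences. Dusp1, the dual-specificity phosphatase that switches off MAP kinases (chr17:26505591-26508472), had signals of 7.10, 7.996 and 7.72 in VDR-null mice, against 7.50, 7.65 and 7.40 in wild-type mice. The VDR-null mice again held both extremes, and the array that was highest for Fos was the lowest for Dusp1. The difference was 0.09 ± 0.22 (SE; limma adjusted p = 0.887; 95% confidence interval -0.44 to 0.62). It was 0.42 ± 0.16 with limma's array weights (adjusted p = 0.221). Leaving out VDR-null replicate 1 gave 0.34, and leaving out VDR-null replicate 2 gave -0.11. Ier2, a nuclear early-response protein (chr8:84661331-84662852), read 6.80, 6.56 and 6.64 in VDR-null mice, against 6.66, 6.67 and 6.87 in wild-type mice. All 6 of its arrays lay within 0.31 of each other, the narrowest range among the members, and its difference was -0.07 ± 0.11 (SE; limma adjusted p = 0.84), or -0.20 with array weights.

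**Figure D2:**
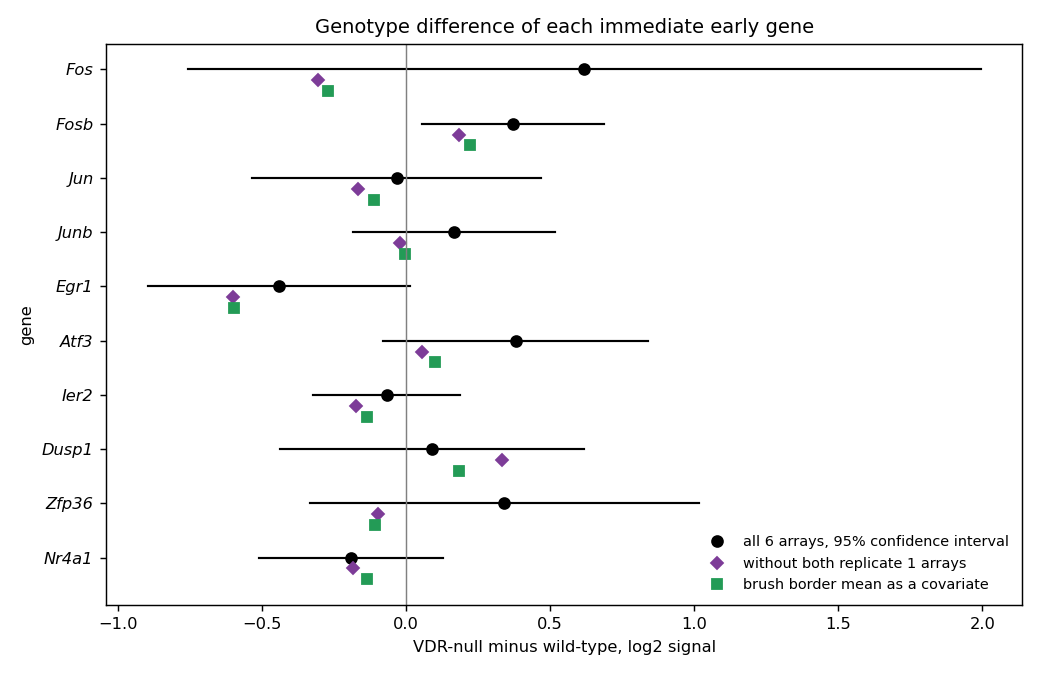
VDR-null minus wild-type difference in log2 signal for each gene: black points and lines give the fit of all 6 arrays with its 95% confidence interval, purple diamonds the value without both replicate 1 arrays and green squares the value adjusted for the brush border mean. Of the 10 intervals, 9 include 0, and Fos, Junb and Zfp36 change sign in both alternative fits. For these genes VDR-null replicate 1 is the highest and wild-type replicate 1 the lowest array, so leaving both out can only lower the difference. The brush border mean has the same ends, so the alternative fits are not independent of each other.

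The members fell into several patterns over the arrays. Fos, Fosb, Junb, Atf3 and Zfp36 were each highest on VDR-null replicate 1 and lowest on wild-type replicate 1, an arrangement held by 13.5% of all tested genes, with 18% in the opposite one. Jun was highest on VDR-null replicate 1 too but lowest on VDR-null replicate 3. Egr1, Ier2 and Nr4a1 were each highest on wild-type replicate 3 and lowest on VDR-null replicate 2. Dusp1 was highest on VDR-null replicate 2 and lowest on VDR-null replicate 1. Spread within genotype exceeded the median of all tested genes, 0.15, in 9 of the 10 members, Ier2 being the exception, and in 6 members it lay above the 75th percentile of all genes. These groupings were read off the values and carry no test.

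Enterocyte brush border markers moved with the first of these patterns. Fos and Zfp36 ranked the 6 arrays exactly as the mean of the 16 brush border genes did, from VDR-null replicates 1 and 2 through wild-type replicates 2 and 3 to VDR-null replicate 3 and wild-type replicate 1. That order was shared by 3.06% of all tested genes. On VDR-null replicate 1 the brush border mean lay at 0.84 and Fos at 1.29 from their 6-array means, and on wild-type replicate 1 they lay at -1.36 and -1.17. The mean of the T cell markers, 5 tested of 8 listed, ranged from 6.78 to 8.41 on VDR-null and from 5.95 to 7.69 on wild-type arrays. The same arrays lay at its ends, and the part of T cells in the result was not tested. All 16 brush border and all 5 T cell genes averaged higher in VDR-null mice (median differences 0.67 and 0.77), against 44% of all tested genes. limma called 0 of these genes at an adjusted p under 0.05. At an unadjusted p under 0.05 it called 1 brush border and 0 T cell genes, while 5.23% of all tested genes passed. On replicates 2 and 3 alone the genotypes overlapped in both list means. The brush border means there were 11.36 and 10.83 in VDR-null and 11.12 and 11.03 in wild-type mice. The T cell means were 7.90 and 6.78 against 7.69 and 6.91. Genes of a list vary together over the arrays, so they are not separate observations. With the mean of the brush border list as a covariate, the difference was -0.27 ± 0.32 (SE) for Fos, -0.11 ± 0.13 for Zfp36 and -0.01 ± 0.13 for Junb. It was 0.22 ± 0.12 for Fosb, 0.10 ± 0.13 for Atf3 and -0.60 ± 0.21 for Egr1, with no member called by limma. The covariate itself differed between the genotypes, so this fit cannot separate the 2, and the changes of sign lie within the SE. Markers of 3 other compartments ran the opposite way, lowest on VDR-null replicate 1 and highest on wild-type replicate 1 in their list means. The crypt and cell division list lay at -0.41 and 0.39 on these arrays, the fibroblast and matrix list at -0.38 and 0.38 and the endothelial list at -0.24 and 0.42. None of their tested genes averaged higher in VDR-null mice, against 44% of all tested genes. Median differences were -0.33 over 10 crypt, -0.27 over 8 fibroblast and -0.33 over 9 endothelial genes. limma called 0 of them at an adjusted p under 0.05. At an unadjusted p under 0.05 there were 3, 2 and 2, while 5.23% of all tested genes passed. The part of these 3 lists in the members' differences was not tested. In whole tissue, fewer cells of a type and less RNA per cell cannot be told apart.

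Other marker lists shared some array ends with the remaining members. The mean of the smooth muscle list, 9 of 9 tested, ranged from 9.60 to 9.63 on VDR-null arrays and from 9.66 to 10.21 on wild-type arrays, highest on wild-type replicate 3, where Egr1, Nr4a1 and Ier2 were also highest. On wild-type replicate 1, however, the muscle mean lay at 0.30 above its 6-array mean and Egr1 at -0.14. None of the 9 muscle genes averaged higher in VDR-null mice (median difference -0.40), against 44% of all tested genes. limma called 0 of them at an adjusted p under 0.05 and 5 at an unadjusted p under 0.05, which 5.23% of all tested genes passed. In 5 the genotypes did not overlap, VDR-null being lower, as in 6.22% of all tested genes. The mean of the heat shock list, all 10 tested, was highest on VDR-null replicate 2, at 0.30, and lowest on VDR-null replicate 1, at -0.42, the arrays that were also the ends for Dusp1, at 0.43 and -0.46. On VDR-null replicate 3 they parted, with the list mean at -0.23 and Dusp1 at 0.16, and not every gene followed the mean, Hsp90aa1 being highest on wild-type replicate 1 (8.84). The macrophage and granulocyte list, 7 tested of 10 listed, also lay low on VDR-null replicate 1 (-0.24) and higher on VDR-null replicate 2 (0.15). Its ends were wild-type replicate 2 (0.23) and wild-type replicate 3 (-0.32), where Dusp1 lay at 0.09 and -0.16. The mean of the circadian clock list, 11 tested of 12, stayed between -0.12 and 0.15 on all arrays, while single clock genes went both ways: Arntl was highest on VDR-null replicate 2 (7.64) and Per3 on VDR-null replicate 1 (7.74). The part of these lists in the results was not tested.

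**Figure D3:**
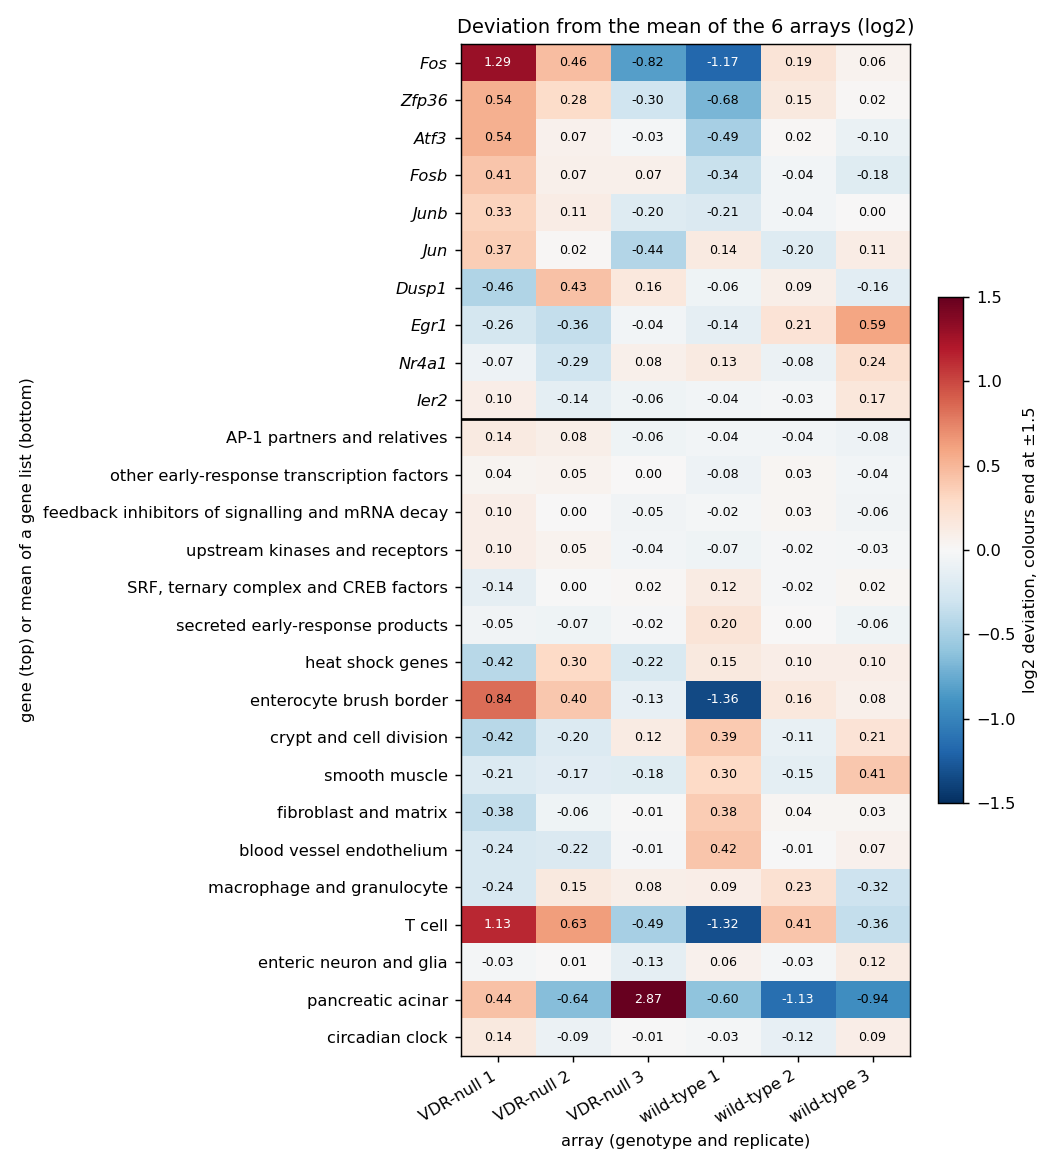
Deviation of each array from the mean of the 6 arrays, in log2 units, for the 10 immediate early genes (top) and for the mean of each gene list (bottom); columns are arrays, red is above and blue below the mean, and colours end at ±1.5. Fos and the brush border list share their extremes on the replicate 1 arrays, while Dusp1 and the mean of the heat shock list share theirs on VDR-null replicates 2 and 1.

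Genes of the surrounding pathway showed no call either. The 7 lists named 108 genes, of which 97 had a probe set with 1 symbol and 89 were tested. limma called 0 of them in either direction at an adjusted p under 0.05; 42 averaged higher and 47 lower in VDR-null duodenum. At an unadjusted p under 0.05 there were 3 of 89, all of them feedback inhibitors, while 5.23% of all tested genes passed. Among the 89 genes the genotypes did not overlap in 2 higher and 3 lower ones, while 4.87% and 6.22% of all tested genes were apart in these directions.

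Partners and relatives of AP-1 were higher in 5 of 8 cases (median difference 0.10), with Fosl2, another Fos relative, at 0.34 ± 0.22 (SE), Batf2 at 0.28 ± 0.21 and the AP-1 repressor Jdp2 at 0.17 ± 0.15. Fosl2 too was highest on VDR-null replicate 1 (9.41) and lowest on wild-type replicate 1 (8.38). Of 20 other early-response factors 13 were higher (median 0.04). Klf4, a zinc finger factor of differentiating epithelium, read 10.11, 8.42 and 8.30 in VDR-null mice, against 7.66, 8.34 and 8.03 in wild-type mice, a difference of 0.93 ± 0.48 (SE; limma adjusted p = 0.683). VDR-null replicate 1 stood apart from the other 5 arrays, which lay between 7.66 and 8.42. Mafk, a small Maf protein, differed by 0.15 ± 0.10, and Myc by -0.30 ± 0.21.

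Feedback inhibitors divided evenly, 11 higher and 11 lower (median -0.0015). Dusp14, another dual-specificity phosphatase, read 6.16, 5.95 and 5.95 in VDR-null mice, against 6.19, 6.31 and 6.35 in wild-type mice. Spry1, which restrains receptor tyrosine kinase signalling, read 7.09, 7.47 and 7.44 in VDR-null mice, against 7.66, 7.70 and 7.57 in wild-type mice. Tnfaip3, the NF-kappaB inhibitor A20, read 7.16, 7.32 and 7.11 in VDR-null mice, against 6.95, 7.06 and 6.81 in wild-type mice. In each of these the genotypes did not overlap, with differences of -0.26 ± 0.10, -0.31 ± 0.12 and 0.25 ± 0.10 (SE; limma adjusted p = 0.683 in each). They were chosen for the smallest p in their list, which favours separate groups.

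No gene of the signalling machinery upstream passed the test. Of 14 receptors and kinases tested, 8 were higher (median 0.10), with the stress kinase kinase Map2k4 at 0.26 ± 0.12 (SE), the receptor Erbb3 at 0.31 ± 0.16 and the MAP kinase kinase Map2k2 at 0.28 ± 0.15. Serum response factor, its partners and CREB factors were lower in 6 of 7 cases (median -0.10), with Elk1, a ternary complex factor, at -0.23 ± 0.13, Srf itself at -0.10 ± 0.09 and the Srf coactivator Mrtfb at -0.15 ± 0.14. Secreted early products were lower in 5 of 8 cases (median -0.13), with the growth factor Ereg at 0.15 ± 0.10, Thbs1 at -0.32 ± 0.21 and the cytokine Lif at -0.12 ± 0.09. Heat shock genes were lower in 9 of 10 cases (median -0.29), with the chaperones Hsp90aa1 at -0.27 ± 0.14, Hspd1 at -0.30 ± 0.19 and Hsph1 at -0.37 ± 0.27. The median over all tested genes was -0.03.

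**Figure D4:**
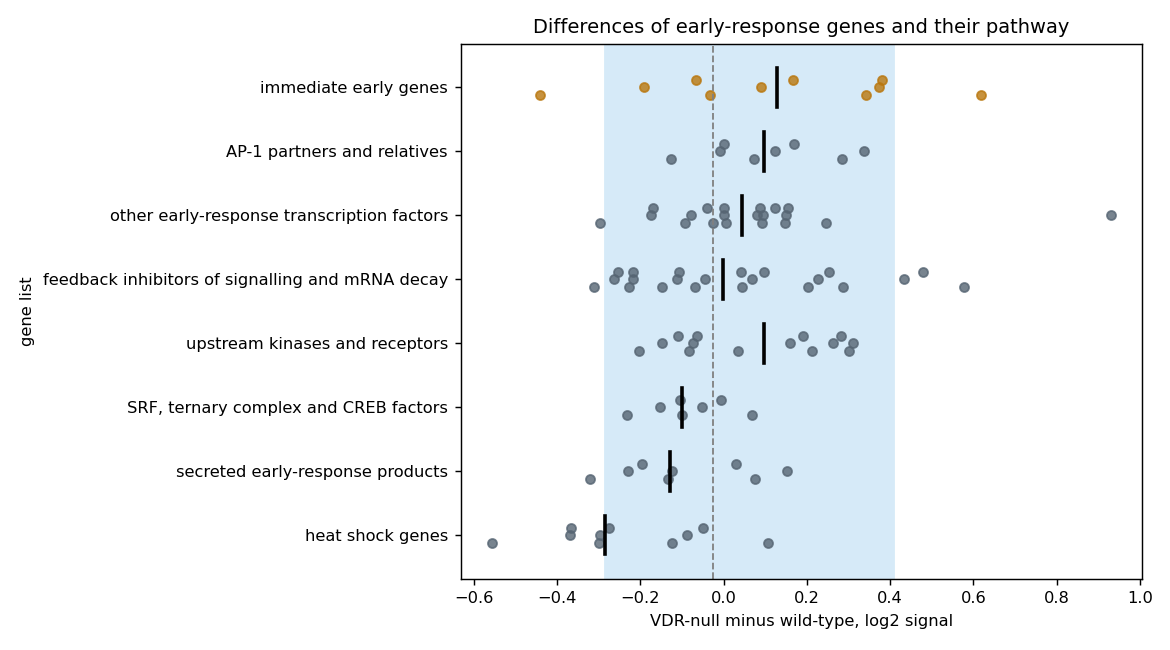
VDR-null minus wild-type difference in log2 signal for every tested gene of 8 lists, a point per gene; black bars are list medians, the dashed line is the median of all 13174 tested genes (-0.03) and the blue band spans their 5th to 95th percentile, -0.28 to 0.41. Klf4 (0.93) and Fos (0.62) lie furthest right; the points left of the band include Egr1 (-0.44), Hsph1 (-0.37), Thbs1 (-0.32) and Spry1 (-0.31), and the heat shock median lies at its left edge (-0.29).

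Over the 6 arrays, the genes with the pattern most like the mean of the 10 members were Dcxr, Msra, Ada, Aspscr1, Gk5 and Tmem160, none of them on the pathway lists, with Pearson's r between 0.992 and 0.998. Ada, the adenosine deaminase of the villus epithelium, read 12.03, 10.21 and 8.66 in VDR-null mice, against 8.003, 10.08 and 10.65 in wild-type mice. Its array ends were those of Fos. The genes furthest in the opposite direction were Mlph, Shq1 and Cyrib, with r from -0.993 to -0.992. The mean of the members is unscaled, so members of wide range, such as Fos (2.46) and Zfp36 (1.22), weigh most in it. Egr1, Ier2, Nr4a1 and Dusp1 had other highest and lowest arrays. The arrays share a strong axis of variation, so these values describe 6 arrays only.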

How the data were processed

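RNA of 6 mouse duodena, 3 VDR-null and 3 wild-type, was measured on Affymetrix Mouse Gene 2.0 ST arrays. Per the submitters' processing notes, the authors obtained the deposited log2 signals by RMA, run in Affymetrix Expression Console. The notes used here give no version and do not say whether all arrays were normalized together. The base of the logarithm follows from RMA and the range of the values, 1.99 to 13.8. Of 41345 probe sets, 23521 had 1 gene symbol, 1814 several and 16010 none; each of 22180 genes was read from its brightest probe set, by mean. RefSeq IDs matched 21994 of these genes.

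limma 3.58.1 (R 4.3.3; lmFit, eBayes) compared the genotypes without a covariate, two-sided, with Benjamini-Hochberg adjustment over 13174 genes and a threshold of 0.05, after it was tested on simulated data. The number of arrays limits the precision. Differences are VDR-null minus wild-type, and folds are 2 to that power. Members and lists were chosen with earlier results of these data known. Named genes are the members, the 3 genes of smallest p in each pathway list, and the 6 most and 3 least similar genes by Pearson's r, without predicted genes, olfactory and vomeronasal receptors and small RNAs. List symbols were updated through RefSeq synonyms. Alternatives covered the filter, normalization, prior, array weights, replicate block, brush border covariate, probe set choice, threshold and arrays left out.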

Additional observations from a re-analysis of the deposited data

How the results depend on the processing

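The counts of called genes and of called members were 0 in all 19 alternative settings by limma (284 to 2718 genes at an unadjusted p under 0.05, 689 with all arrays and no covariate). The members' median difference, 0.13, was -0.11 with the brush border covariate and -0.13 without both replicate 1 arrays, and 0.07 to 0.24 when single arrays were left out. Changes of the filter, prior, replicate block or probe set choice leave a member's difference as it is by construction. Of 179 recomputed member differences, with those fits counted, 11 changed sign. With the brush border covariate these were Fos (-0.27), Junb (-0.0057) and Zfp36 (-0.11), and without both replicate 1 arrays Fos (-0.31), Junb (-0.023) and Zfp36 (-0.10). VDR-null replicate 1 was the highest and wild-type replicate 1 the lowest array for these genes, so leaving both out could only lower the difference. The brush border mean had the same ends, so the covariate fit is not independent of the fit without these arrays. With single arrays left out, Dusp1 ranged from -0.11 (without VDR-null replicate 2) to 0.34, Jun from -0.23 to 0.18 (positive without VDR-null replicate 3, wild-type replicate 1 or wild-type replicate 3) and Ier2 from -0.14 to 0.002 (without wild-type replicate 3). The cause of these changes was not tested beyond the arrays left out. Array weights moved Dusp1 to 0.42, Ier2 to -0.20, Egr1 to -0.68 and Nr4a1 to -0.38. The lowest adjusted p of any member in any alternative was 0.191, for Egr1. Under the stricter filter Fosb was not tested.

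The replicate block left the members' differences as they were (median 0.13) and called 0 genes, with 338 at an unadjusted p under 0.05. Deviations of same-numbered arrays correlated at -0.62, 0.19 and -0.26 over genes. The labels do not say whether the numbers pair the mice. These values cannot decide it, because a strong axis of variation with the replicate 1 arrays at its ends shapes them. Signals near 5.17, such as those of Fosb, are limited by background.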

Other observations

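Fos and Egr1, which many stimuli induce together, did not rank the arrays alike. The array with the highest Fos signal, VDR-null replicate 1 (7.64), was the fifth of 6 for Egr1 (5.85), and VDR-null replicate 2, second for Fos (6.80), was the lowest for Egr1 (5.75). Wild-type replicate 3, highest for Egr1 (6.70), was the fourth for Fos (6.40).

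Neighbours on a chromosome differed too. Junb and Ier2, 314 kb apart, had ranges of 0.54 and 0.31 over the 6 arrays and different highest and lowest arrays. Nr4a1, whose promoter window holds CRE half-sites as that of Fos does, ranged by 0.54 over the arrays, against 2.46 for Fos. These are values of 6 mice with no test.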
